A study of Mus musculus with 16 samples.

Results

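Mucins and the genes that control goblet cells were followed in the lungs of mice exposed to second-hand smoke (SHS) before birth, as adults, or at both times. The set holds 9 genes: the gel-forming mucins Muc5ac and Muc5b, the membrane mucins Muc1, Muc4 and Muc16, the mucin folding factor Agr2, and the transcription factors Spdef, Foxa2 and Foxa3. They were taken by name from the gene symbols of the Affymetrix mouse expression array used, and every probe set with one of these symbols was kept. This gave 12 probe sets of 45037 tested, and 9 genes of 18193 that the array names. Muc4 has 3 probe sets, Agr2 has 2, and the other 7 genes have 1 each.

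RNA came from the whole left lung of male Balb/c mice aged 15 weeks, with no engineered allele in any group. Per the labels' protocols, exposure lasted 5 hours on each of 7 days in the week. Smoke was sidestream smoke, which rises from the burning tip of a cigarette, with 10 mg of particles per m3, and control mice had filtered air. Groups are named with 2 letters, the first for the time in utero and the second for adult life, with A for air and S for SHS. AA mice had air at both times, AS mice air and then SHS, SA mice SHS and then air, and SS mice SHS at both times. Each group had 4 arrays, labelled as separate animals, and the labels used here give no litter, dam, array batch or time of day.

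Mucus on the airway surface traps inhaled particles so that cilia can carry them out. Its gel is built from Muc5ac and Muc5b, very large glycoproteins that are folded with the help of Agr2, packed into granules and released by goblet and club cells. Spdef drives the goblet cell programme and acts upstream of Foxa3 and Agr2, while Foxa2 is known to hold that programme back in the mouse airway. Muc1, Muc4 and Muc16 stay anchored in the cell membrane and line the epithelial surface.

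Foxa2 is the only transcription factor of the set that passed the test in a comparison below, so its promoter is shown: the 250 bases before the most upstream of its annotated starts, chr2:148046970-148047219 of GRCm38.p6 on the minus strand, from RefSeq, 5′ to 3′ and all in lower case because none of the motifs searched was found there.

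Foxa2 promoter: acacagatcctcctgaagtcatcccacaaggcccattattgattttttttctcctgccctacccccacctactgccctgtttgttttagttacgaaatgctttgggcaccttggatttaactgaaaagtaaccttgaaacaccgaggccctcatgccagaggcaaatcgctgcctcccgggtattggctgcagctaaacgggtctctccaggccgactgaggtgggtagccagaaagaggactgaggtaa

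The 7 motifs were searched on both strands. They were AP-1 (TGANTCA), the core of the cyclic AMP response element (TGACG), the core of the site for xenobiotic sensing (GCGTG), a forkhead site (TGTTTAC), the core of a glucocorticoid site (AGAACA), a SMAD site (CAGACA) and an E-box (CACGTG). Among 32851 RefSeq promoters of the same length, the share that holds each was 6.75%, 17.8%, 28.2%, 3.17%, 16.1%, 17.1% and 6.02%, in that order. The windows before the other annotated starts of Foxa2, the second and the third, each held 1 match of GCGTG, on the strand opposite to the gene. Promoters of 7 of the 9 genes were in the RefSeq table, and those of Muc5ac and Muc5b are named only. On that assembly Muc5ac and Muc5b are neighbours, 19.8 kb apart.

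The values are log2 values as deposited, already on a common scale across arrays, with array medians from 6.90 to 6.93. The arrays of AS replicates 3 and 4, and those of SS replicates 1 and 2, differed from each other far less than the other 22 replicate pairs within groups, so each pair was averaged and counted as 1 sample. This leaves 4 AA, 3 AS, 4 SA and 3 SS samples. The averaged AS sample stood farthest from the AA mean over all probe sets, with an SD of the differences of 0.29 against 0.16 to 0.23 for the others. The adult effects of the members are therefore also given without it. The 2 averaged pairs also show how closely single probe sets repeat on near-identical arrays. Between the arrays of a pair, Muc5b differed by 0.0082 and 0.0294, Foxa2 by 0.073 and 0.0387, and Muc5ac by 0.107 and 0.0137. Spdef differed by 0.0527 in the AS pair and 0.403 in the SS pair, and Muc16 by 0.304 and 0.116.

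Muc5ac, the gel-forming mucin that mice switch on in inflamed airways, rose with adult SHS. Its values were 6.35, 6.24, 6.30 and 6.31 in AA, and 6.91, 6.72 and 6.78 in AS. They were 6.37, 6.34, 6.27 and 6.51 in SA, and 6.53, 6.57 and 6.59 in SS. Every one of the 6 samples with adult SHS lay above every one of the 8 with adult air, with the highest SA sample just under the lowest SS sample. Over both in-utero groups the adult effect was 0.34 ± 0.05 on the log2 scale (SE; n = 6 and 8 samples), a 1.27-fold rise (limma, adjusted p = 0.00223). Group means were ordered AA 6.30 ± 0.04 (SD, n = 4), SA 6.38 ± 0.10 (SD, n = 4), SS 6.56 ± 0.03 (SD, n = 3) and AS 6.80 ± 0.10 (SD, n = 3). AA and SA overlapped, and the other neighbours in that order did not.

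The Muc5ac rise was 1.42-fold in mice of the air group in utero and 1.14-fold in mice exposed to SHS in utero. AS minus AA was 0.50 ± 0.07 (SE; limma, adjusted p = 0.00368), and SS minus SA was 0.19 ± 0.07 (adjusted p = 0.224), which did not pass. The difference between these adult effects, tested as an interaction, was -0.32 ± 0.10, with a 95% interval from -0.53 to -0.11 (limma, adjusted p = 0.276), and -0.33 without the averaged AS sample. It did not pass after adjustment. Without the averaged AS sample, the AS rise was 0.52 (adjusted p = 0.007) and the average adult effect 0.35 (adjusted p = 0.00441). With AS and AA samples alone in the fit, the AS rise had an adjusted p of 0.0517. A filter at a mean log2 value of at least 7 leaves Muc5ac out. Its probe set had a mean of 6.49, below the median of 6.92 over all probe sets and above the mean of 44.1% of them. Whether this probe set read above background was not tested. Its spread within groups was small, an SD of 0.0757, which 12% of probe sets undercut.

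Muc5b, the gel-forming mucin that mouse airways make at rest, was higher by a like amount with adult SHS. Its values were 8.14, 8.20, 8.36 and 7.96 in AA, and 8.40, 8.53 and 8.76 in AS. They were 7.70, 8.07, 8.32 and 8.34 in SA, and 8.40, 8.64 and 8.71 in SS. Again all 6 adult SHS samples lay above all 8 adult air samples, although the gap between the sets was narrow: 8.36 for the highest air sample and 8.40 for the lowest SHS sample. The adult effect was 0.44 ± 0.10 (SE; n = 6 and 8), a 1.35-fold rise (limma, adjusted p = 0.0261). It was 0.40 ± 0.15 for AS minus AA (adjusted p = 0.155), or 0.30 without the averaged AS sample, and 0.47 ± 0.15 for SS minus SA (adjusted p = 0.134), and neither passed alone. The interaction for Muc5b was 0.08, with an interval from -0.37 to 0.52. The order of group means was SA 8.11 ± 0.30 (SD, n = 4), AA 8.16 ± 0.17 (SD, n = 4), AS 8.56 ± 0.18 (SD, n = 3) and SS 8.58 ± 0.17 (SD, n = 3), with SA and AA overlapping, and AS and SS overlapping. Muc5b varied more within groups than 91.5% of probe sets, and SA replicate 1 was its lowest sample. The call was lost when the averaged AS sample was left out (0.39, adjusted p = 0.0613), or SS replicate 3 (0.42, adjusted p = 0.0708) or SS replicate 4 (0.40, adjusted p = 0.0652).

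**Figure D1:**
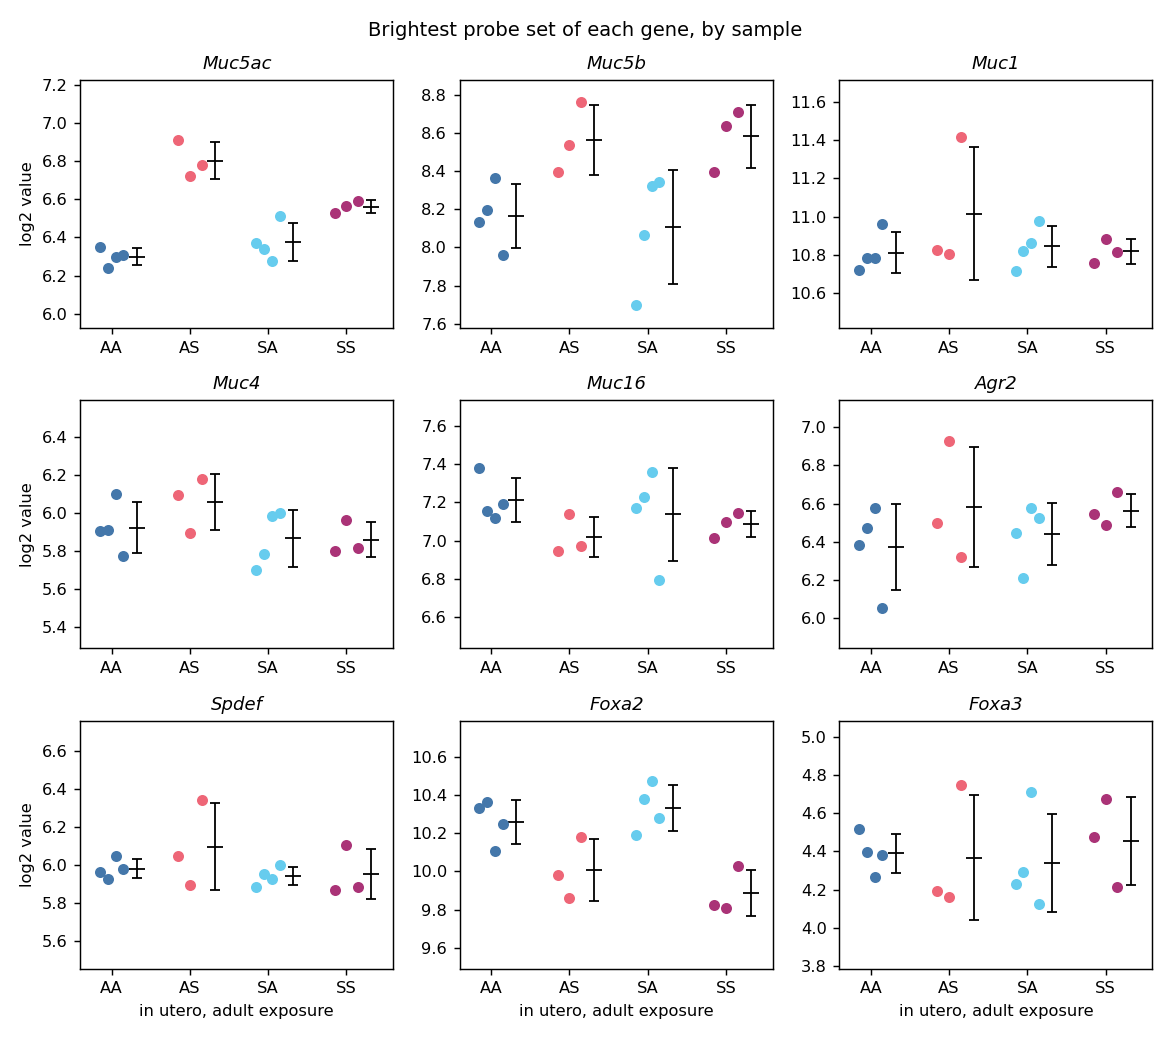
Deposited log2 value (vertical axis) of the brightest probe set of each of the 9 genes in the 14 samples, by group (horizontal axis: AA, AS, SA, SS); points are samples, and bars beside them are the group mean ± SD. Muc5ac and Muc5b sit higher in AS and SS than in AA and SA, Foxa2 sits lower, and the groups of the other 6 genes overlap; each panel spans the same range of log2 values.

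None of the member genes Muc1, Muc4 and Muc16 passed the test in any comparison. Muc1, a mucin of the alveolar and airway surface, read 10.72, 10.78, 10.78 and 10.96 in AA, 10.83, 10.80 and 11.42 in AS, 10.71, 10.82, 10.86 and 10.98 in SA, and 10.76, 10.88 and 10.82 in SS. One sample, the averaged AS sample at 11.42, lay above all others. With it, AS minus AA was 0.20 ± 0.12 (SE; limma, adjusted p = 0.358), and without it the difference was 0.0034. The average adult effect on Muc1 was 0.09 with that sample and -0.01 without it. Muc16, the longest of the membrane mucins and also made by the mesothelium that covers the lung, read 7.38, 7.15, 7.12 and 7.19 in AA, 6.95, 7.14 and 6.97 in AS, 7.17, 7.23, 7.36 and 6.79 in SA, and 7.01, 7.10 and 7.15 in SS. Its adult effect was -0.12 with a 95% interval from -0.29 to 0.05 (limma, adjusted p = 0.349), or -0.11 without the averaged AS sample, and the groups overlapped. Muc4, which binds the receptor ErbB2 beside its place in the surface layer, read 5.90, 5.91, 6.10 and 5.78 in AA, 6.09, 5.90 and 6.18 in AS, 5.70, 5.78, 5.98 and 6.0 in SA, and 5.80, 5.96 and 5.81 in SS at its brightest probe set. The adult effects of the 3 Muc4 probe sets were 0.06, 0.08 and 0.05, with 95% intervals that lie between -0.09 and 0.24, and 0.03, 0.11 and -0.0016 without the averaged AS sample. The dimmest of them had a mean above that of 3.75% of probe sets.

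Agr2, a disulfide isomerase that mucins need to fold, did not pass in any comparison. Its brighter probe set read 6.38, 6.47, 6.57 and 6.05 in AA, 6.50, 6.93 and 6.32 in AS, 6.44, 6.21, 6.58 and 6.52 in SA, and 6.54, 6.49 and 6.66 in SS. AS replicate 2 was the highest and AA replicate 4 the lowest of the 14 samples, and the groups overlapped. The adult effect was 0.17 with an interval from -0.05 to 0.38 (limma, adjusted p = 0.309), and 0.23 without the averaged AS sample (adjusted p = 0.18). A rise as large as that of Muc5ac or none at all would both lie within that interval. The second Agr2 probe set had a mean above that of 0.722% of probe sets and an adult effect of 0.02, with the averaged AS sample or without it.

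Among the regulators, Foxa2 fell with adult SHS while Spdef and Foxa3 did not pass. Foxa2 read 10.33, 10.36, 10.11 and 10.25 in AA, and 9.98, 9.86 and 10.18 in AS. It read 10.19, 10.38, 10.47 and 10.28 in SA, and 9.83, 9.81 and 10.03 in SS. The SS samples lay below every sample with adult air, while the averaged AS sample, at 10.18, lay within the AA range. The adult effect was -0.35 ± 0.07 (SE; n = 6 and 8), 1.27-fold lower (limma, adjusted p = 0.0106). Group means were ordered SS 9.89 ± 0.12 (SD, n = 3), AS 10.01 ± 0.16 (SD, n = 3), AA 10.26 ± 0.12 (SD, n = 4) and SA 10.33 ± 0.12 (SD, n = 4), and neighbours in that order overlapped.

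In mice exposed in utero, Foxa2 fell by 0.44 ± 0.10 with adult SHS (SS minus SA, SE; limma, adjusted p = 0.0301), 1.36-fold lower. In mice that had air in utero the difference was -0.25 ± 0.10 (adjusted p = 0.163), which did not pass, and it was -0.34 without the averaged AS sample (adjusted p = 0.134). The interaction was -0.19 with an interval from -0.48 to 0.10 (adjusted p = 0.72), so a difference between the adult effects was not detected for Foxa2. The SS minus SA call was lost without SA replicate 2 (adjusted p = 0.0799), SA replicate 3 (0.0984), the averaged SS sample (0.13) or SS replicate 3 (0.174). Without the averaged AS sample the average adult effect on Foxa2 was -0.39 (limma, adjusted p = 0.00764). That average effect passed with any 1 of the 14 samples left out, with values from -0.39 to -0.31 and adjusted p from 0.00764 to 0.0376.

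Spdef, the Ets factor of goblet cells, read 5.96, 5.93, 6.05 and 5.98 in AA, 6.05, 5.89 and 6.34 in AS, 5.89, 5.95, 5.93 and 6.0 in SA, and 5.87, 6.11 and 5.88 in SS. The averaged AS sample was the highest and the rest lay within a narrow band. Its adult effect was 0.06 with an interval from -0.08 to 0.20 (limma, adjusted p = 0.566), and 0.0024 without the averaged AS sample. Foxa3, a forkhead factor that can turn on mucin genes, read 4.52, 4.40, 4.27 and 4.38 in AA, 4.19, 4.16 and 4.75 in AS, 4.23, 4.29, 4.71 and 4.12 in SA, and 4.48, 4.67 and 4.21 in SS. The 4 groups overlapped, AA being the tightest (SD 0.10, n = 4) and AS the widest (SD 0.33, n = 3), and the SD within groups was 0.235, above that of 93.6% of probe sets. The Foxa3 effect was 0.05 with an interval from -0.19 to 0.28, and -0.05 without the averaged AS sample, so its direction rests on that sample, and this probe set is dim, with a mean above that of 16% of probe sets.

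Counted over the set, adult SHS averaged over both in-utero groups changed 3 of 12 probe sets: Muc5ac and Muc5b higher, Foxa2 lower. The background is 5.95% of all probe sets called, 2.82% higher and 3.13% lower. The other 9 probe sets had adult effects from -0.12 to 0.17, with adjusted p of 0.309 or above, and the median over the 12 was 0.06 against 0.01 over all probe sets. Samples with adult SHS lay wholly above those with adult air for 2 of the 12, Muc5ac and Muc5b, against 0.764% of all probe sets, and wholly below for none, against 0.795%. For AS minus AA, 1 of 12 probe sets was called, Muc5ac, against 1.55% of all probe sets, and groups did not overlap for Muc5ac and Muc5b, both higher, against 8.73% of all. For SS minus SA, 1 of 12 was called, Foxa2, against 1.64% of all. There the groups did not overlap for Muc5ac and Muc5b, both higher (7.97% of all), or for Foxa2, lower (8.77% of all). These 2 comparisons share no samples, but both come from 1 fit and use the same estimate of the spread over all 4 groups.

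**Figure D2:**
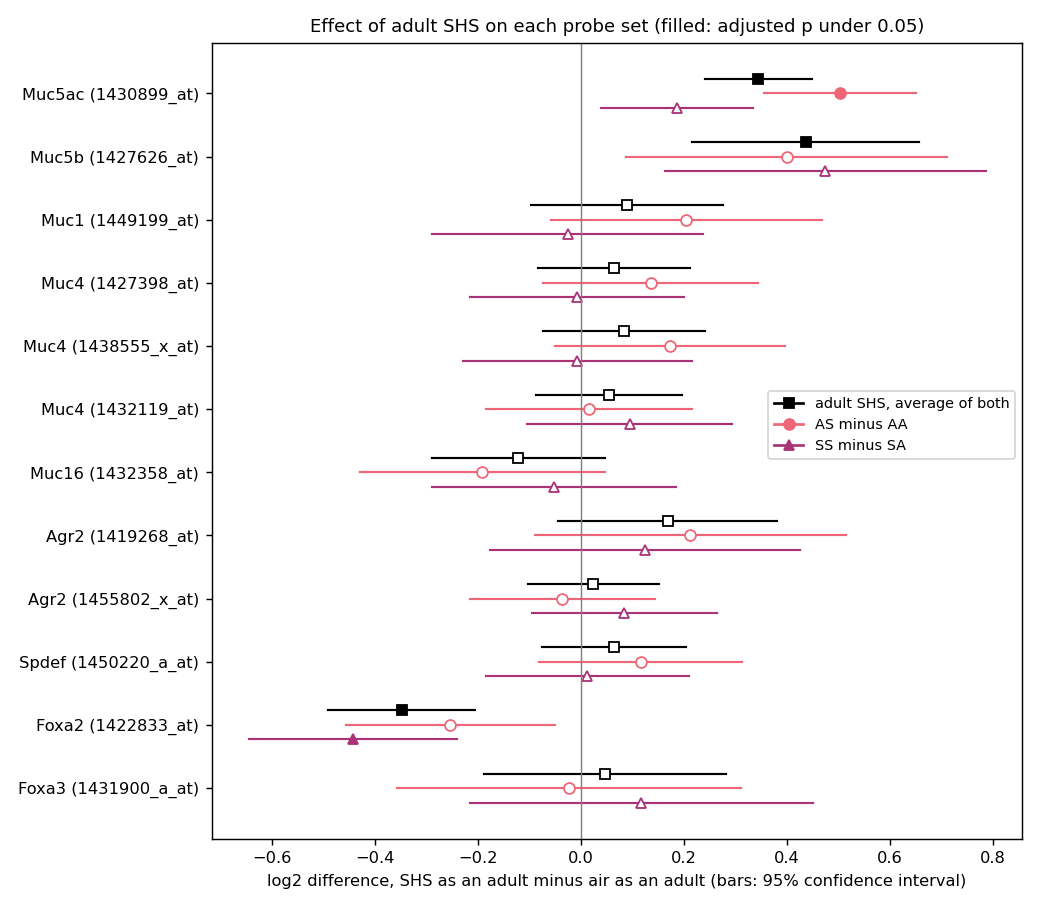
Log2 difference between SHS and air as an adult (horizontal axis) for the 12 probe sets (vertical axis), with 95% confidence intervals: black squares are the average of both in-utero groups, circles AS minus AA, and triangles SS minus SA; filled symbols passed an adjusted p of 0.05. Intervals of the average leave out 0 for Muc5ac, Muc5b and Foxa2, and span 0 for the other 9 probe sets.

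No member passed the test for exposure in utero alone. In SA against AA, 0 of 12 probe sets were called, against 0% of all 45037 by limma, and 1 had an unadjusted p under 0.05, against 6.23% of all (2808 probe sets). That one was a Muc4 probe set, of the type that can also bind other transcripts, at 0.25 ± 0.10 (SE; limma, adjusted p = 0.755), while the brightest Muc4 probe set was at -0.05. The 3 genes that changed with adult SHS were close to AA: Muc5ac at 0.08, with a 95% interval from -0.06 to 0.21, Muc5b at -0.06, from -0.35 to 0.23, and Foxa2 at 0.07, from -0.12 to 0.26. Effects within these intervals could be missed with 4 samples a group.

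In mice that all had adult SHS, SS against AS, 0 of 12 probe sets were called, against 0.968% of all. Muc5ac had a difference of -0.24 ± 0.07 (SE; limma, adjusted p = 0.155), with no overlap between the groups, against 9.04% of all probe sets wholly lower in SS, and it was -0.25 without the averaged AS sample (limma, adjusted p = 0.198). Of 6 lymphocyte markers, 1 was called in the same comparison, against 0.467% of all genes called lower. Cd79a, a part of the B cell receptor, fell by 1.31 ± 0.22 (SE; limma, adjusted p = 0.0125; 0.0658 without SS replicate 3). The list median was -0.69, over B and T cell genes together. Over all samples the B cell genes Cd79a, Cd79b and Ms4a1 ranged from 7.08 to 8.75, 7.76 to 9.67 and 7.67 to 9.93. The T cell genes Cd3e, Cd3g and Cd4 ranged from 8.14 to 8.75, 7.36 to 8.40 and 7.23 to 7.65. The summed level of the 6 markers on the linear scale ran from 1214 to 1548 in SS and from 1999 to 2931 in AS, with no overlap. It ran from 1555 to 2658 in AA and from 1742 to 2410 in SA, so SS lay below every other group. The part of this level in the Muc5ac difference was not tested. Muc5ac was the 1 member with an unadjusted p under 0.05 in SS against AS, against 13.6% of all. Both exposures against neither, SS minus AA, gave 0 of 12 called, against 0.4% of all. The 4 members with an unadjusted p under 0.05 (10.3% of all) were Muc5ac at 0.26, Muc5b at 0.42, Foxa2 at -0.37 and a Muc4 probe set at 0.24, with adjusted p from 0.128 to 0.439. SS and AA did not overlap for Muc5ac and Muc5b, higher (7.13% of all), or Foxa2, lower (6.97%). In the interaction 0 of 12 were called, against 0.131% of all, and Muc5ac was the 1 member with an unadjusted p under 0.05, against 9.11% of all.

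No relation between the mucins and Foxa2 was detected within either adult exposure. Since samples fall apart by adult exposure, relations were computed within the 8 adult air and the 6 adult SHS samples, 12 relations in all among Muc5ac, Muc5b, Foxa2 and Spdef. The in-utero groups were pooled there with their means left in. The values in adult SHS thus contain the difference between AS and SS, which do not overlap for Muc5ac. For Muc5ac and Foxa2, Pearson's r was -0.21 in adult air (exact permutation p = 0.597; Spearman's rho -0.33, exact permutation p = 0.428) and 0.52 in adult SHS (p = 0.333; rho 0.66, p = 0.175). Without the 2 samples farthest from the median of Muc5ac, r was -0.24 and 0.57. For Muc5b and Foxa2, r was 0.21 in adult air (exact permutation p = 0.602; rho 0.02, p = 0.977) and 0.57 in adult SHS (p = 0.219; rho 0.60, p = 0.242), and -0.41 and 0.83 without the 2 farthest samples. For the mucins with each other, r was -0.01 in adult air (exact permutation p = 0.884; rho -0.26, p = 0.536), -0.78 without the 2 farthest, and -0.14 in adult SHS (p = 0.792; rho 0.26, p = 0.658), 0.09 without the 2 farthest. None of the 12 passed after Benjamini-Hochberg adjustment, with 0.667 the lowest adjusted value for Pearson's r and 0.594 for Spearman's rho.

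**Figure D3:**
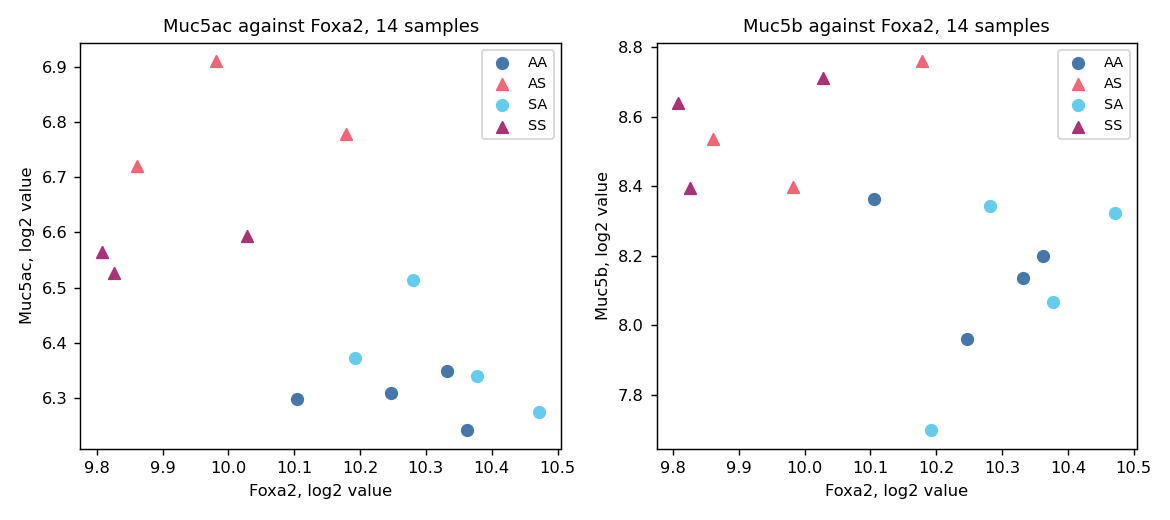
Muc5ac (left, vertical axis) and Muc5b (right, vertical axis) against Foxa2 (horizontal axes), deposited log2 values of 14 samples; circles are samples with adult air and triangles those with adult SHS, coloured by group. Adult SHS samples lie higher on both mucins and mostly lower on Foxa2, and within neither adult exposure did the permutation test find a relation.

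The genes whose brightest probe set tracked each of the 3 most closely over the 14 samples are given as a description, among 11041 genes with a mean log2 value of at least 7. All of these correlations contain the adult SHS difference that the samples share. For Muc5ac they were Crat, carnitine acetyltransferase (r = 0.92), Cacng7 (0.90), Tcl1b3 (0.90), Fbxw22 (0.89) and 1700036A12Rik (0.88). With group means taken out, these 5 fell to between 0.31 and 0.58. For Muc5b they were Bhlhe40, a transcription factor of the clock and of immune cells (0.89), Ppl, which encodes periplakin of epithelial junctions (0.87), Nes (0.87), Stk40 (0.87) and Map3k9 (0.86), and with group means taken out 0.65 to 0.78. For Foxa2 they were the ephrin Efna1 (0.97), Stox1 (0.94), Arhgap22 (0.93), Snai1 (0.92) and Kctd2 (0.92). Efna1 had 0.94 with group means taken out, and its own adult effect was -0.39. All values with group means taken out come from the same 14 samples by which the genes were picked, so they are no separate support.

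Around the 9 genes, 7 lists of other genes of mucus making were read at the brightest probe set of each gene, 156 genes in all. Adult SHS, averaged, changed 9 of them: 6 higher (3.85%) and 3 lower (1.92%), against 2.86% higher and 3.41% lower over the brightest probe sets of all 18193 genes. Enzymes that put sugars on mucins and fold them gave 0 of 30 past the test, with a list median of -0.01. Gcnt1, which starts core branches on mucin sugars, was the farthest of that list from 0, at -0.24 (limma, adjusted p = 0.126). The other mucin core genes gave 0 of 12, with Muc15 at -0.18 and Muc3 at 0.18. Neither list had a called gene in AS against AA.

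The secretion list gave 2 of 21 higher and 0 lower. P2ry2, the nucleotide receptor through which ATP triggers mucin release, rose by 0.43 ± 0.08 (SE; limma, adjusted p = 0.0114). Its means were 6.55 ± 0.15 in AA (SD, n = 4), 7.05 ± 0.24 in AS (SD, n = 3), 6.60 ± 0.19 in SA (SD, n = 4) and 6.97 ± 0.02 in SS (SD, n = 3). The call held with any 1 sample left out. Cplx2, a complexin of regulated exocytosis, rose by 0.17 ± 0.05 (adjusted p = 0.0487), a call that held in 1 of 14 such fits. In AS against AA Cplx2 rose by 0.29 (adjusted p = 0.0474), which held in 2 of the 14.

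The list of mucus layer partners gave 3 of 22 higher, with a list median of 0.11 against 0.00 over all genes. It also holds genes whose products are not part of that layer, such as Cyp2f2, Pax9 and Sec14l3. Zg16, a lectin of goblet cell granules, rose by 0.28 ± 0.07 (limma, adjusted p = 0.0286), and by 0.47 in AS against AA (adjusted p = 0.0323, held in 9 of 14 fits with 1 sample left out). Dmbt1, a scavenger glycoprotein of the mucosa, rose by 0.24 ± 0.06 (adjusted p = 0.0292), and the trefoil peptide Tff1 by 0.21 ± 0.06 (adjusted p = 0.0434). The Dmbt1 probe set is dim, with means of 3.76 in AA, 3.97 in AS, 3.71 in SA and 3.99 in SS. The average calls of Zg16, Dmbt1 and Tff1 held in 9, 9 and 3 of the 14 fits with 1 sample left out. The farthest of this list from 0 were Reg3g, an antimicrobial lectin, at 0.66 ± 0.25 (adjusted p = 0.123), and the chemokine Ccl20, at 0.32 (adjusted p = 0.0832), and neither passed.

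Among 30 signals known to set mucin expression, Tslp, an epithelial alarm cytokine, fell by 0.38 ± 0.09 (limma, adjusted p = 0.0261), a call that held in 10 of the 14 fits with 1 sample left out, and the others did not pass. Hbegf, a ligand of the EGF receptor, was at 0.42 ± 0.20 (adjusted p = 0.203). The receptor Egfr was 0.47 ± 0.09 higher in SS than in AS (adjusted p = 0.0184), a call that held in 11 of the 14 fits. Its means were 9.18 in AA, 8.84 in AS, 9.03 in SA and 9.31 in SS.

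Of 25 genes of airway cell fate, 1 rose and 2 fell with adult SHS, and both Notch ligands on the list were among them. Jag1 fell by 0.30 ± 0.06 (limma, adjusted p = 0.0115) and Jag2 rose by 0.21 ± 0.04 (adjusted p = 0.0168), and both calls held with any 1 sample left out. Jag1 means were 9.99 in AA, 9.80 in AS, 10.04 in SA and 9.64 in SS, and Jag2 means 8.09, 8.25, 8.07 and 8.32. Id2 fell by 0.22 ± 0.06 (adjusted p = 0.038), in 4 of the 14 fits with 1 sample left out, and the Notch target Hey1, at -0.39 ± 0.12, did not pass (adjusted p = 0.0725). In SS against SA, Jag1 fell by 0.40 (adjusted p = 0.0243), a call that held in 9 of the 14 fits. Muc15, a membrane mucin that is not a member, had a difference of -0.42 between SS and SA (adjusted p = 0.0372, held in 9 of 14). Its means were 4.7 in AA, 4.75 in AS, 5.12 in SA and 4.71 in SS, so SA stood above the other groups and SS was at the AA level. Ion and fluid transport gave 0 of 16 past the test for the adult average, with Aqp4 at -0.30 (adjusted p = 0.105). In SS against SA, Nedd4l, a ubiquitin ligase that limits sodium uptake, rose by 0.25 (adjusted p = 0.0494), in 2 of the 14.

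**Figure D4:**
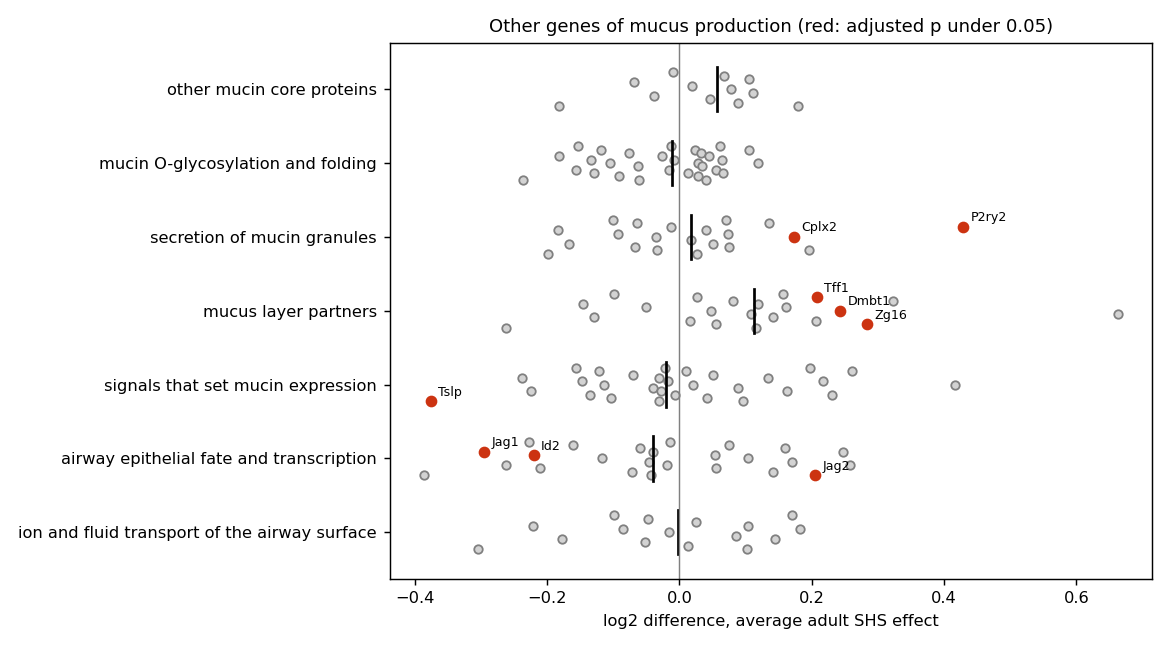
Average adult SHS effect (horizontal axis, log2 difference) at the brightest probe set of each other gene in 7 lists of mucus production (vertical axis); points are genes, red and named where the adjusted p is under 0.05, and the bar is the list median. The called genes lie in 4 of the 7 lists, and the largest rise among them is that of P2ry2, 0.43.

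Cell type markers were read at the brightest probe set of each gene. The share to set beside the counts of called markers is that of all 18193 genes. With adult SHS, averaged, 2.86% of them were called higher and 3.41% lower. In whole lung, fewer cells of a type and less RNA per cell cannot be told apart. Of the 5 goblet cell markers that are not members (Clca1, Tff2, Fcgbp, Gcnt3 and Bpifb1), none passed with adult SHS. Their summed level on the linear scale ran from 456 to 747 in AA, 567 to 714 in AS, 611 to 681 in SA and 500.2 to 635 in SS, so the groups overlapped. Clca1, the classical goblet cell marker, was dim, with a mean above that of 10.1% of probe sets, and Gcnt3 was dimmer, at 5.86%. The sum therefore comes mostly from Bpifb1, Fcgbp and Tff2, with means of 8.18, 7.34 and 7.0.

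Of 9 club cell markers, 1 rose: Scgb3a1, a secretoglobin of secretory cells of the larger airways, by 0.72 ± 0.14 (limma, adjusted p = 0.00999), a larger adult effect by value than that of either gel-forming mucin. The summed club cell level ran from 123170 to 128860 in AA, 130380 to 131860 in AS, 121480 to 126760 in SA and 127800 to 132330 in SS. The AS range lay above those of AA and SA, and the SS range lay above that of SA and overlapped that of AA. Of single probe sets, 8.73% lay wholly higher in AS than in AA, and 7.97% in SS than in SA. The sum includes Scgb3a1, and its part in these gaps was not tested. None of the other 8 club cell markers was called for the adult average. Over all 9 the middle value of that effect was 0.034, against 0.0046 for all genes. Of 10 ciliated cell markers, 1 fell, Tekt1 by 0.19 (adjusted p = 0.0457), and of 9 mesothelium markers, 1 fell, Lrrn4 by 0.47 ± 0.07 (adjusted p = 0.00237). The Scgb3a1 and Lrrn4 calls held with any 1 sample left out, and that of Tekt1 in 3 of 14 fits. Of 6 basal and squamous cell markers Krt15 rose by 0.21 (adjusted p = 0.0322), and of 7 gland and salivary markers Amy1 fell by 0.24 (adjusted p = 0.0375), each a call that held in 5 of 14 fits. With adult SHS on average, no marker passed among 8 of type 2 and 7 of type 1 alveolar cells, 4 of neuroendocrine cells and 6 of lymphocytes. The part of these shifts in the results for Muc5ac, Muc5b and Foxa2 was not tested. Of the markers that define lung, Sftpc of alveolar type 2 cells read 15.07 and Scgb1a1 of club cells 14.95 on average, and both were among the brightest probe sets of the array.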

How the data were processed

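Whole left lung RNA, labelled as from 16 mice, was measured on 16 arrays. The authors deposited values on a log2 scale, as their range of 2.40 to 15.11 shows. How they corrected background and normalized is not given in the sources used here. The submitters' processing notes name limma alone, with no version. Of 45101 probe sets, 64 controls were left out. Names came from the platform annotation, updated through Entrez identifiers for 34741 probe sets. Of those tested, 34945 had 1 symbol, 932 several and 9160 none.

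Replicate arrays were compared on bright, variable probe sets. The ratio of their differences over variable to those over stable probe sets was 1.24 and 1.35 for the averaged pairs (SS replicates 1 and 2, AS replicates 3 and 4) and 2.84 to 5.96 for 22 others. One mean per group was fitted to all 14 samples with limma 3.58.1 under R 4.3.3 (functions lmFit, contrasts.fit, eBayes), which leaves 10 residual degrees of freedom. Tests are two-sided and called at a Benjamini-Hochberg adjusted p under 0.05 over 45037 probe sets within each of 7 comparisons. The average adult effect weights both in-utero groups equally, and the interaction is SS minus SA less AS minus AA. The fit was tested on simulated data. The highest-mean probe set, called the brightest, stands for its gene in gene lists. From each list the named genes are those called in a comparison and at most 2 more with large changes, and the 5 genes with the highest r were named for Muc5ac, Muc5b and Foxa2. The members and lists were chosen with earlier results of these data known. Array number limits precision. The p-values set each difference against the spread between these samples, whose litters and dams the labels do not give. Alternatives covered array averaging, scaling, weights, filters and the samples in the fit, and leaving out each sample.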

Additional observations from a re-analysis of the deposited data

How the results depend on the processing

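For the adult average, Muc5ac passed in 9 of 9 and Foxa2 and Muc5b in 10 of 10 alternatives that kept all samples, and with 1 of 14 samples left out Muc5ac and Foxa2 passed in 14 and Muc5b in 11, so 2 to 3 members were called. No member value that was called changed sign. With all 16 arrays as separate samples, 2 members were called for AS minus AA (Muc5ac, and Muc5b at adjusted p = 0.0492), 1 for SS minus AS (Muc5ac, 0.0352) and 1 for SS minus AA (Foxa2, 0.045), all by limma. With array weights, 2 were called for SS minus SA (Foxa2, and Muc5b at 0.0405), 1 for SS minus AS (Muc5ac, 0.026) and 2 for SS minus AA (Muc5ac, 0.0317, and Foxa2, 0.0286). For AS minus AA, 0 were called with only its groups in the fit (Muc5ac, 0.0517), and 0 with probe sets of mean log2 value of at least 7, where Muc5ac was not tested. Deviations of same-numbered samples had a median correlation of 0.0403, against -0.0345 for different numbers. A correlation over 0.1 was seen in 3 of 18 same-numbered pairs and 10 of 55 others. The numbers were not taken as pairs in the main fit. With the replicate number as a block, 0 members were called for SS minus SA (Foxa2 at -0.44, adjusted p = 0.0832), and the block changed no other member count. With 1 sample left out, member counts ranged from 1 to 1 for AS minus AA and 0 to 1 for SS minus SA, and were 0 to 0 in the 4 other comparisons. Counts over all probe sets moved more. With 16 arrays, 699 for AS minus AA became 3565, 737 for SS minus SA 1345, 436 for SS minus AS 2214, 180 for SS minus AA 406, 59 for the interaction 330 and 2680 for the adult average 5771. With only the groups compared, AS minus AA had 47 and SS minus AS 131. With array weights, SS minus SA had 2154, SS minus AS 1181, SS minus AA 792, the interaction 205 and the average 4713. With the block, SS minus SA had 470, SS minus AS 272, SS minus AA 89 and the average 1749. The interaction had 89 after further quantile normalization and 89 with a trended, robust variance prior. Tested on 1 probe set per gene, and so on fewer features, AS minus AA had 179, SS minus SA 470, SS minus AS 134, the interaction 27 and the average 1500. With 1 sample left out, the average ranged from 1032 to 3616, AS minus AA from 185 to 905, SS minus SA from 171 to 1014, SS minus AS from 136 to 507, SS minus AA from 34 to 266 and the interaction from 23 to 115. The 9 genes of the mucus lists called for the average became 24 with 16 arrays, 15 with weights, 5 with the block and 3 to 15 with 1 sample left out. The cause was otherwise not tested. The number of samples limits all of these, and the dim probe sets of Foxa3, Muc4 and Agr2 had the least signal. The probe sets of Muc5ac and Spdef also lay below the median level of all probe sets.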
